A study of Homo sapiens with 10 samples.

Results

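Gene expression after 1 h of hepatocyte growth factor (HGF) was compared with gene expression without it in MDA-MB-435, an established human melanoma cell line, on Illumina Human-8 V1 bead arrays. The comparison rests on 4 of the 10 arrays of the study, 2 of cells given HGF for 1 h and 2 of untreated cells, taken by their treatment labels, and it covers 14018 of 24105 probes. The labels describe standard growth for all cells, and the dose of HGF is not given in the sources used here. The other 6 arrays, 2 each of cells given HGF for 6 h, given HGF for 24 h, or stably transduced with integrin beta-4 (ITGB4), entered the estimate of the spread and are otherwise used only to place the values at 1 h. The 2 arrays of a group are called biological duplicates by the submitters and are numbered 1 and 2.

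HGF is the ligand of MET, a receptor tyrosine kinase known for driving motility, invasion and proliferation. Active MET recruits adaptors such as GRB2 and GAB1 and signals through RAS to the kinase ERK, through PI3K and through STAT3. In many cell types ERK switches on immediate early genes, such as EGR1 and FOS, before any new protein is needed, and these are followed by feedback inhibitors such as the DUSP phosphatases and the Sprouty proteins. NF-kB, a family of transcription factors held in the cytoplasm by IkB proteins, can also be engaged by growth factors and raises the RNA of its own inhibitors.

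Of 21 markers of the melanocyte lineage on the arrays, 15 were detected on all 4 arrays, and the summed normalised signal of the markers ran from 34380 to 43160. Epithelial markers were detected on all 4 arrays for 5 of 23 and summed to between 2052 and 2272, while 14 of the 23 were detected on none. In a bulk sample, fewer cells of a type and less RNA per cell cannot be told apart. Scanner medians of the 10 arrays ran from 74.9, on HGF 1 h replicate 1, to 96.9, and between 10226 and 11899 probes were detected, with the most on the same array. The detection scores of undetected probes put the arrays into a low and a high background set. An array was placed in the low set if the 25th percentile of these scores was under 0.05. This cut was chosen for the comparison, and no label names such sets. The percentile was 0.000696 and 0.0945 on untreated replicates 1 and 2. On HGF 1 h replicates 1 and 2 it was 0.000114 and 0.055, the latter just past the cut. Among the 4 arrays compared, the low set held replicate 1 of both groups and the high set replicate 2 of both, so array background and replicate number cannot be told apart here. Duplicate arrays correlated across probes at 0.9853 for untreated and 0.9845 for HGF 1 h. The second HGF 1 h array was closer to untreated replicate 2, at 0.9911, than to its own duplicate.

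No probe passed the test at 1 h in the fit of all 10 arrays without a block. Of 14018 probes, 0 (0%) had an adjusted p under 0.05 in limma, whose smallest adjusted p was 0.189, although 1897 had an unadjusted p under 0.05 where 701 would be expected if none differed. These 1897 were 702 higher and 1195 lower after HGF, or 5.01% and 8.52% of the probes. With array background as a block the count was again 0, with a smallest adjusted p of 0.0584 and 2905 probes under 0.05 unadjusted. With replicate number as a block the count was 427, 70 higher and 357 lower, with a smallest adjusted p of 0.0179 and 2918 probes under 0.05 unadjusted. These blocks split the 10 arrays alike except for ITGB4 replicate 1, which was in the high background set. The counts of 0 and 427 therefore do not come from separate adjustments. The labels do not say that a replicate number marks a shared culture or day. When the test without a block took its spread from the 4 arrays alone, it called 252 probes, 14 higher (0.0999%) and 238 lower (1.7%). With the 10 arrays scaled to the median of detected probes it called 26, 2 higher and 24 lower. The values that follow are therefore differences with their standard errors, and the adjusted p in the fit of the 4 arrays is given where it called a gene described here. That fit had 2 residual degrees of freedom and 19.8 from the prior, so its spread came mostly from the prior. Many genes described here were picked by their values on the same 4 arrays. Their calls in that fit are partly built in and are no separate evidence.

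Most differences were small, and the large ones were mostly downwards. Over all probes the median log2 difference was 0.04, the 5th and 95th percentiles were -0.55 and 0.40, and the standard error had a median of 0.18. There was 1 probe over 2-fold higher, against 60 that were over 2-fold lower. Both HGF 1 h arrays lay above both untreated arrays for 3373 probes (24.1%) and below both for 2818 (20.1%), a balance that moved to 41.3% and 11.8% under median scaling. Within replicate numbers, the log2 difference of replicate 1 had a standard deviation of 0.42 across probes and that of replicate 2 of 0.22. Both differences had the same sign for 64.9% of the 14018 probes, and their correlation across probes, which share the same 4 arrays, was 0.528. Past 1.5-fold in both replicates were 15 probes that were higher (0.107%) and 138 that were lower (0.984%), which included 14 genes (0.132% of 10596) and 122 genes (1.15%). Of these 122 genes, 116 had the larger difference in replicate 1, as had 9 of the 14. Scaling each array to the median of its detected probes, in place of quantile normalisation, moved the median of all probes to 0.17, so a sign that turned under this scaling is given with the gene.

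**Figure D1:**
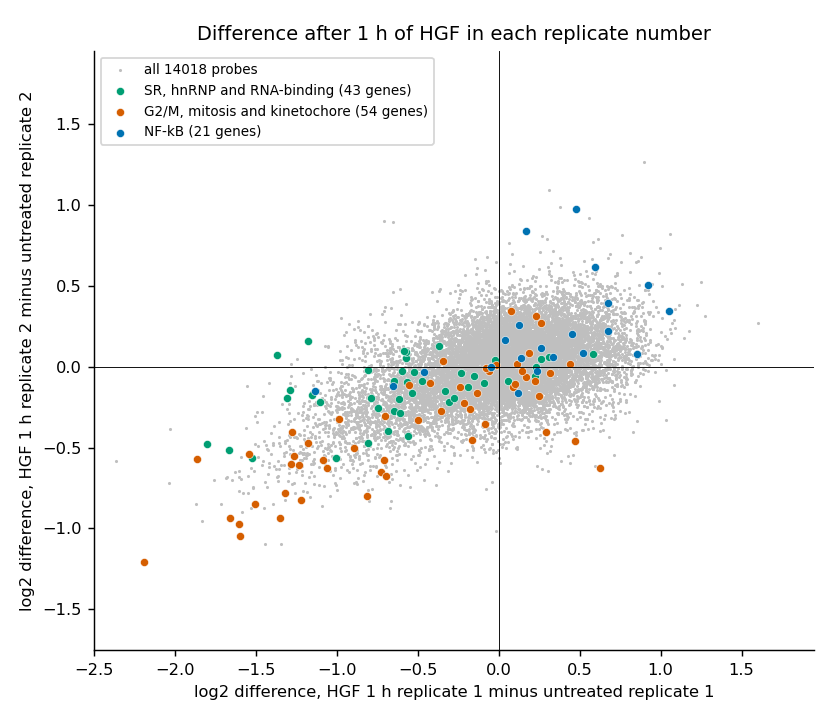
Log2 difference between HGF 1 h and untreated cells in replicate 1 (x axis) and in replicate 2 (y axis) for 14018 probes in grey, with the brightest probe of each gene of 3 lists in colour. The cloud is wider along replicate 1, with a standard deviation of 0.42 against 0.22, and genes of mitosis extend to the lower left, down to ASPM at -2.19 and -1.21.

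The receptor pathway itself gave no called gene. The probe for HGF was not detected on any of the 10 arrays, with signals from 53.2 to 69.2. MET read 107 and 84.5 on untreated replicates 1 and 2 and 99.5 and 78.5 after 1 h, close to the detection limit of 89.6, the median of the limits of the 10 arrays. Its groups overlapped, and the difference of -0.11 ± 0.19 turned to 0.05 under median scaling. Of 19 measured genes for the receptor, its activators and its adaptors, 6 (31.6%) were higher on both HGF 1 h arrays and 4 (21.1%) lower, near the 25.2% and 22.1% of all 10596 genes, with a median of 0.08 against 0.04 for all genes. PIK3R1, the regulatory subunit of PI3K, read 481 and 442 in untreated cells and 242 and 349 at 1 h (-0.67 ± 0.21, adjusted p = 0.223). PTPN11, the phosphatase SHP2 that couples receptors to RAS, read 1257 and 1095 and then 766 and 933, a difference of -0.47 ± 0.18. Both of these genes were lower on each HGF 1 h array than on either untreated array.

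Among the immediate early genes the differences were modest and uneven. EGR1, a zinc finger transcription factor, read 329 and 159 in untreated cells and 484 and 299.7 at 1 h. It was higher within each replicate number, by 0.56 and 0.92, but the untreated arrays lay so far apart that the groups overlapped, and the difference of 0.74 ± 0.46 had an adjusted p of 0.519. IER2, another immediate early gene, did separate, with 339 and 335 against 576 and 437 (0.58 ± 0.19, adjusted p = 0.245). CSRNP1, a nuclear protein of the same class, read 178 and 149 and then 300.3 and 233 (0.70 ± 0.17, adjusted p = 0.189). PPP1R15A, which directs a phosphatase to the translation factor eIF2-alpha, read 1769 and 1539 and then 3091 and 1990, so that it too was higher on both arrays. Of 35 measured genes in this list, 10 were higher on both HGF 1 h arrays and 3 lower, or 28.6% and 8.57%, beside 25.2% and 22.1% of all 10596 genes, and the median was 0.11. KLF6 and KLF10 differed by -0.10 ± 0.16 and -0.09 ± 0.17 with overlapping groups, KLF10 turning to 0.03 under median scaling, and EGR2 and EGR3 had no probe past the detection filter.

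The differences of the 14 measured AP-1 genes ran from -0.20 to 0.42. FOS read 383 and 284 in untreated cells and 286 and 294 at 1 h, so that both HGF 1 h arrays lay inside the untreated range (-0.18 ± 0.20). JUN, its usual partner, read 119 and 105 and then 127 and 121 (0.15 ± 0.16). Its signals on the 10 arrays ran from 96.2 to 126.6, near the detection limit of 89.6. FOSL2, a FOS relative, had the largest difference among AP-1 genes whose groups were apart, with 166 and 163 against 251 and 194 (0.42 ± 0.19, adjusted p = 0.357). FOSB and FOSL1 differed by 0.22 ± 0.20 and 0.27 ± 0.16. JUNB and ATF3, detected on 3 and 1 of the 10 arrays, differed by 0.06 and 0.05 with overlapping groups. Of 14 measured AP-1 genes, 4 (28.6%) were higher on both HGF 1 h arrays and 0 lower, beside 25.2% and 22.1% of all genes, and the median was 0.11. MYC, which promotes cell growth, read 2756 and 2318 and then 2640 and 2281, a difference of -0.04 ± 0.18 that turned to 0.21 under median scaling.

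Genes that report ERK output pointed in no common direction. DUSP6, the phosphatase that switches ERK off, read 844 and 604 in untreated cells and 590 and 477 at 1 h (-0.43 ± 0.25, adjusted p = 0.5). Both HGF 1 h arrays were below both untreated arrays, but narrowly for replicate 1. SPRED1, an inhibitor of RAS signalling, read 1684 and 1630 and then 829 and 1246 (-0.71 ± 0.20, adjusted p = 0.204). PHLDA1, an ERK-responsive gene, differed the other way, with 368 and 302 before and 487 and 418 after (0.44 ± 0.22, adjusted p = 0.402). SPRY4, a Sprouty inhibitor, differed by 0.37 ± 0.18 and DUSP4, a nuclear phosphatase of ERK, by -0.40 ± 0.19. A dimmer probe of DUSP4 read 97.6 and 133 and then 115 and 120, a difference of 0.04 with overlapping groups. SPRY2 read 2141 and 1815 and then 1759 and 1783, a difference of -0.15 ± 0.16 that turned to 0.07 under median scaling. CCND1, the G1 cyclin, read 216 and 209.9 and then 184 and 157 (-0.32 ± 0.29). Of 33 measured genes in the list, 10 were higher and 9 lower with the groups apart, or 30.3% and 27.3%, near the 25.2% and 22.1% of all genes, and the median was 0.01.

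Genes of motility and matrix proteolysis were more often lower than higher. Of 28 measured, 12 (42.9%) were lower on both HGF 1 h arrays and 5 (17.9%) higher, beside 22.1% and 25.2% of all genes, with a median of -0.04 that turned to 0.10 under median scaling and was -0.22 in replicate 1 and -0.04 in replicate 2. PLAUR, the urokinase receptor, read 158 and 152 and then 207 and 162 (0.24 ± 0.16). CXCL8, the chemokine interleukin-8, is in the list of inducible cytokines and not in this one. It read 173 and 124 and then 108 and 122 (-0.35 ± 0.26). The second HGF 1 h array, at 122.4, was only narrowly below untreated replicate 2, at 123.7. The one gene of motility that the fit of the 4 arrays called was RND3, which read 457 and 429 and then 218 and 293 (-0.81 ± 0.20, adjusted p = 0.189, and 0.0317 in the fit of the 4 arrays). ITGB1, the beta-1 integrin chain, read 4515 and 3919 and then 2652 and 3233, below the 8 arrays of the other groups on both arrays.

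**Figure D2:**
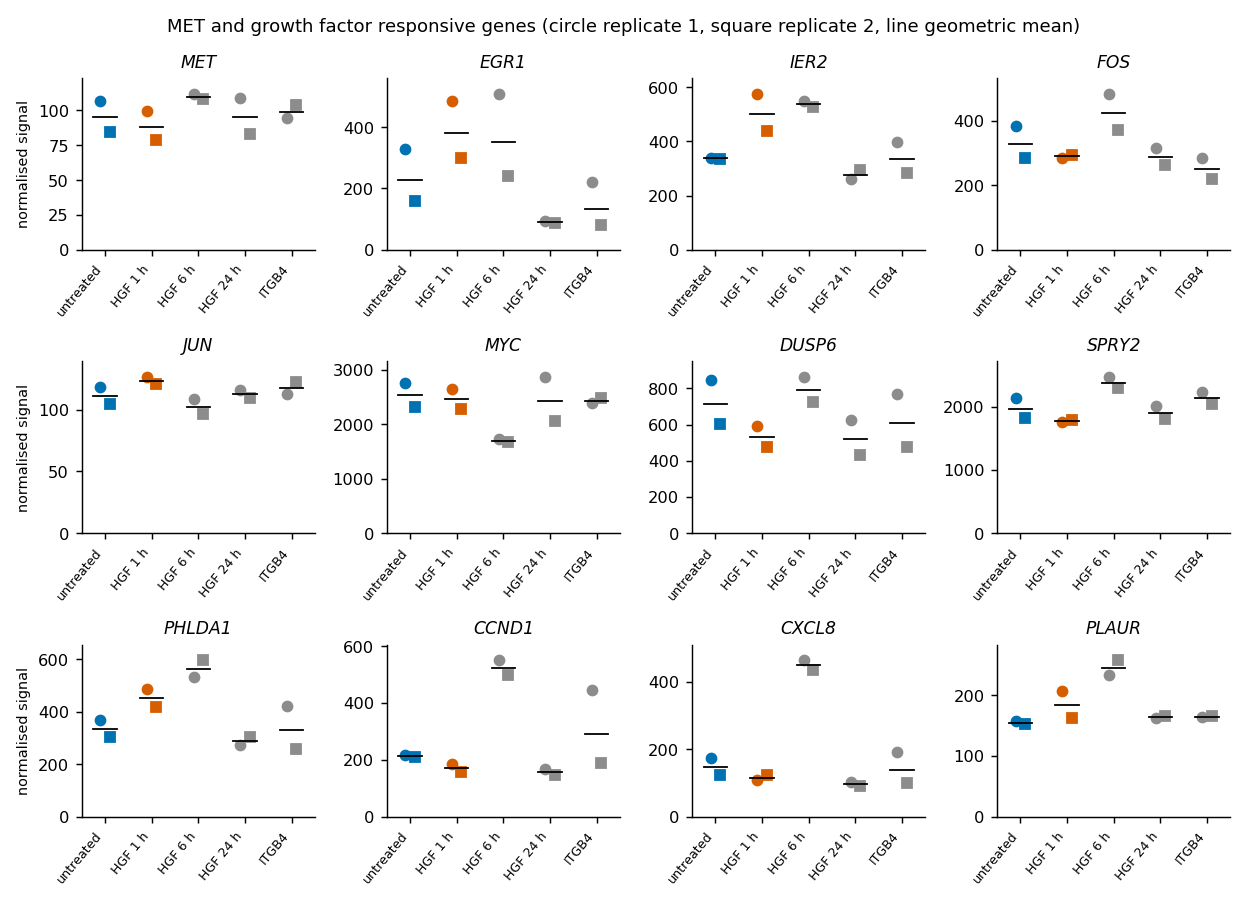
Normalised signal, on a linear axis from 0, of MET and 11 growth factor responsive genes on all 10 arrays by group, with untreated in blue and HGF 1 h in orange. At 1 h the points of IER2 and PHLDA1 lie above the untreated points and those of EGR1 and FOS overlap them. Those of CXCL8 and CCND1 lie below them, for CXCL8 only narrowly in replicate 2, and both genes are highest at 6 h.

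The NF-kB list held the largest share of genes that were higher on both HGF 1 h arrays among the 24 pathway lists. Of 21 measured members, 14 (66.7%) were higher with the groups apart and 3 (14.3%) lower, beside 25.2% and 22.1% of all genes, and the median was 0.20, with 0.26 in replicate 1 and 0.11 in replicate 2. None was called, also in the fit of the 4 arrays. Against the untreated mean, the list median was 0.33 and 0.15 on HGF 1 h replicates 1 and 2, and 0.24 on the second array at 24 h, above the second array at 1 h. With HGF 1 h replicate 2 alone, 14 of the 21 (66.7%) lay above both untreated arrays and 4 (19%) below, beside 38.2% and 33.2% of all genes. NFKBIA, which encodes the inhibitor IkB-alpha, read 658 and 521 in untreated cells and 915 and 1025 at 1 h (0.73 ± 0.17, adjusted p = 0.189, and 0.0525 in the fit of the 4 arrays). It was as high at 6 h, so that the 1 h arrays were not the highest of the 10. NFKBIE, which encodes IkB-epsilon, read 350.2 and 339 and then 529 and 520.2, nearly the same difference in both replicates (0.61 ± 0.16, adjusted p = 0.195). RELB, a subunit of the alternative NF-kB pathway, read 124 and 121 and then 236 and 171 (0.71 ± 0.17, adjusted p = 0.189). On the other 6 arrays RELB stayed between 113 and 151 and NFKBIE between 329 and 421, below both 1 h arrays. NFKB2, the p100 precursor that pairs with RELB, read 166 and 185 and then 343 and 235 (0.70 ± 0.19, adjusted p = 0.198). IRF1, a factor shared by NF-kB and interferon signalling, read 143 and 126 and then 227 and 166 (0.53 ± 0.18). The 3 lower members were BIRC2, an inhibitor of apoptosis, at -0.64 ± 0.29, and NFKBIZ and REL at -0.39 and -0.25, the last a pair named after their values were seen.

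The promoter of NFKBIA is shown because its gene had the largest difference in this list. It is the 250 bases before the RefSeq start on the minus strand of build GRCh38.p14, chr14:35404750-35404999, with the match to the kB consensus, found on the reverse strand, in capitals.
NFKBIA: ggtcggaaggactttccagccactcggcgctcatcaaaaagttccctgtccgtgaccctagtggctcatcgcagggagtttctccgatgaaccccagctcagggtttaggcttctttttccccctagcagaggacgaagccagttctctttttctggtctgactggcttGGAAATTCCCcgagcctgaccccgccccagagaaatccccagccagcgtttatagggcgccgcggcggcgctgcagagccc
A match to the kB consensus on either strand was present in the same window of 7 of 19 promoters of the list (36.8%), beside 11.4% of the 8728 promoters of all measured genes. Among the 19, the median difference was 0.09 for the 7 with a match and 0.19 for the 12 without. The promoter of NFKB2 had no match in this window, and those of RELB and NFKBIE were not in the table.

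Genes of the amino acid and unfolded protein stress response were mixed. DDIT3, the stress-induced transcription factor CHOP, read 683 and 714 in untreated cells and 1361 and 1187 at 1 h (0.86 ± 0.16, adjusted p = 0.189, and 0.0199 in the fit of the 4 arrays). Its 1 h arrays were the highest of the 10. SESN2, a stress-induced inhibitor of mTORC1, read 299.7 and 374 and then 908 and 451 (0.93 ± 0.30, adjusted p = 0.224, and 0.0494 in the fit of the 4 arrays), so that most of its difference lay in replicate 1. DDIT4, another inhibitor of mTORC1, read 302 and 409.8 and then 629 and 481 (0.65 ± 0.24). CHAC1, an enzyme that degrades glutathione, read 313 and 347 and then 655 and 401 (0.64 ± 0.28), again with the larger difference in replicate 1. HSP90B1, the endoplasmic reticulum chaperone GRP94, differed the other way, with 4033 and 3233 and then 2048 and 2405 (-0.70 ± 0.25). Of 34 measured members, 13 (38.2%) were higher and 5 (14.7%) lower with the groups apart, beside 25.2% and 22.1% of all genes. The median was 0.16, and without HGF 1 h replicate 1 it was -0.004.

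Interferon-responsive genes had the highest list median, 0.31, with 0.41 in replicate 1 and 0.14 in replicate 2. Of 26 measured members, 11 (42.3%) were higher on both HGF 1 h arrays and 5 (19.2%) lower, beside 25.2% and 22.1% of all genes. Against the untreated mean, the list median was 0.43 and 0.14 on the HGF 1 h arrays and 0.22 on HGF 24 h replicate 2. ISG20, an exonuclease, read 554 and 406 in untreated cells and 939 and 711 at 1 h (0.79 ± 0.21, adjusted p = 0.192, and 0.0494 in the fit of the 4 arrays). TAP1, which moves peptides to HLA class I, read 1058 and 1046 and then 1664 and 1370 (0.52 ± 0.16). IFI16, a sensor of DNA, was lower, with 1767 and 1459 and then 929.8 and 929.1 (-0.79 ± 0.23, adjusted p = 0.204, and 0.0314 in the fit of the 4 arrays). The 1 h arrays were the lowest of the 10 for IFI16.

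The largest single difference upwards was that of PRRG2, a transmembrane protein with a vitamin K-dependent Gla domain. It read 109 and 94.7 in untreated cells and 202 and 228 at 1 h, while the 6 arrays of the other groups stayed between 71.6 and 122 (1.08 ± 0.19, adjusted p = 0.189, and 0.0069 in the fit of the 4 arrays). ARFIP2, which binds ARF and RAC GTPases, read 263 and 344 and then 626 and 494, also above the 8 other arrays (0.89 ± 0.21, adjusted p = 0.189, and 0.0242 in the fit of the 4 arrays). SMTN, a smoothelin of actin filaments, read 173 and 219 and then 380 and 312 (0.82 ± 0.19, adjusted p = 0.0305 in the fit of the 4 arrays). The remaining largest differences upwards were in TMEM198, TSSC4, CYB561D2, LSR, PRADC1, SERTAD1, MCOLN1 and TINF2, from 0.73 to 0.79 with adjusted p from 0.189 to 0.23. Of these, TSSC4, CYB561D2, LSR, PRADC1, SERTAD1 and TINF2 were called in the fit of the 4 arrays, with adjusted p from 0.0327 to 0.0493. Among all 10596 genes, 358 (3.38%) had both 1 h arrays above the 8 arrays of the other 4 groups and 339 (3.2%) had both below.

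Downwards, genes of mitosis and the kinetochore, the structure that ties chromosomes to the spindle, were prominent. All 54 genes of the list were measured and detected on all 4 arrays, and 24 (44.4%) were lower on both HGF 1 h arrays while 1 (1.85%) was higher, beside 22.1% and 25.2% of all genes, with a median of -0.31 and of -0.39 and -0.34 in replicates 1 and 2. The fit of the 4 arrays called 14 of the 54 lower and 0 higher, beside 208 (1.96%) and 12 (0.113%) of all 10596 genes. ASPM, a protein of the spindle poles, read 880.4 and 1036 in untreated cells and 193 and 449 at 1 h. Its difference of -1.70 ± 0.36 was the largest of all probes (adjusted p = 0.189, and 0.00528 in the fit of the 4 arrays). CENPE, the motor that moves chromosomes at the kinetochore, read 273 and 203 and then 90.0 and 98.1 (-1.32 ± 0.27, adjusted p = 0.189, and 0.00399 in the fit of the 4 arrays). CENPF, a large coiled-coil kinetochore protein, read 649 and 743 and then 205 and 389 (-1.30 ± 0.28). TTK, the spindle checkpoint kinase MPS1, read 926 and 1167 and then 305 and 596 (-1.29 ± 0.26). Each of these 4 genes was lowest at 1 h, since the other 6 arrays read at least 515, 128, 428 and 668 for ASPM, CENPE, CENPF and TTK. CENPK, another kinetochore subunit, read 664 and 504 and then 183 and 340 (-1.22 ± 0.30), but its lowest array elsewhere read 288, inside the 1 h range. CDK1, the kinase that drives entry into mitosis, read 1663 and 2009 and then 691 and 1368 (-0.91 ± 0.25, adjusted p = 0.199), and replicate 2 at 1 h was close to the lowest of the other 6 arrays, 1367. A dimmer probe of CDK1 read 436 and 661 and then 236 and 543, a difference of -0.58 with overlapping groups.

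The list was not uniform. The genes just named, with the condensin subunits SMC2 and SMC4 at -0.94 and -1.14 and the kinesins KIF18A and KIF11 at -1.02 and -0.81, stood far from 0, whereas CDC20, an activator of the anaphase-promoting complex, differed by 0.27, FOXM1, a transcription factor of this phase, by 0.26, CCNB1, the mitotic cyclin, by -0.004, and PLK1 and AURKA, mitotic kinases, by 0.002 and -0.005. PLK1 differed by 0.63 in replicate 1 and by -0.62 in replicate 2. These further members were named after their values were seen, and of them SMC2, SMC4, KIF18A and KIF11 were called in the fit of the 4 arrays, with adjusted p from 0.0117 to 0.0319. Against the mean of the untreated arrays, the median of the list was -0.56 on HGF 1 h replicate 1 and -0.09 on replicate 2, and the untreated arrays themselves stood at -0.19 and 0.19, so replicate 2 lay inside the untreated range. Without HGF 1 h replicate 1 the median difference was -0.09, and without untreated replicates 1 and 2 it was -0.56 and -0.14. With replicate 2 alone, 24 of the 54 genes (44.4%) lay below both untreated arrays and 8 (14.8%) above, beside 33.2% and 38.2% of all genes. Both HGF 1 h arrays were below the 8 other arrays for 14 of the 54 genes, beside 3.2% of all genes. Genes of G1/S and DNA replication, with 41 measured, had 8 (19.5%) higher on both HGF 1 h arrays and 7 (17.1%) lower. This was beside 25.2% and 22.1% of all genes, and the median was 0.08.

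**Figure D3:**
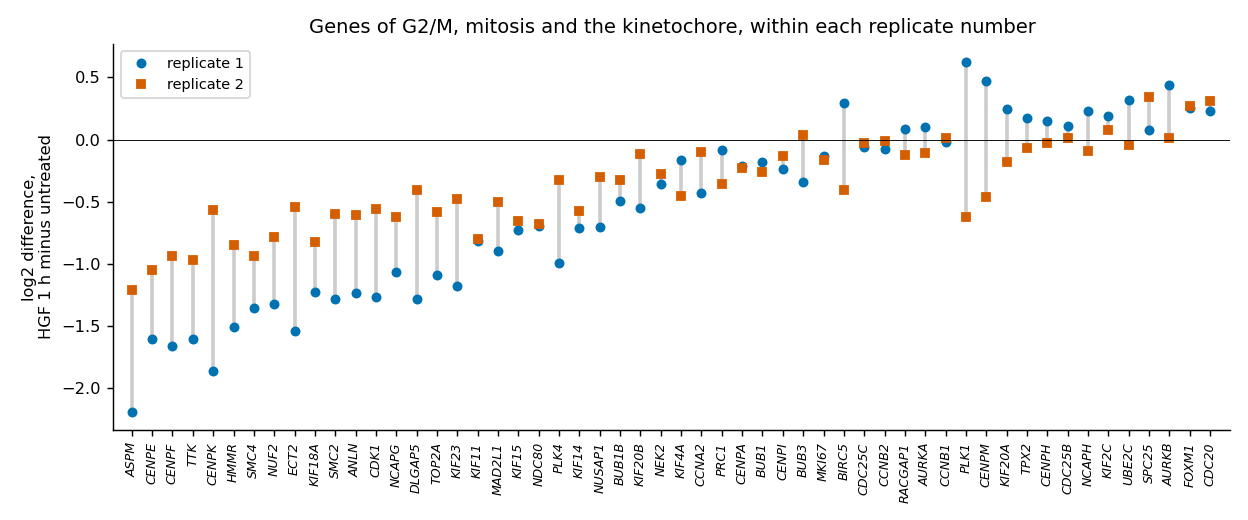
Log2 difference between HGF 1 h and untreated cells for each of the 54 genes of G2/M, mitosis and the kinetochore, with a circle for replicate 1 and a square for replicate 2, ordered by their mean. ASPM, at -2.19 and -1.21, is at the left end and CDC20, at 0.23 and 0.31, at the right, and most genes in the left part have the larger difference in replicate 1.

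Promoters of 3 genes of this list are shown because genes of this phase are known to carry CCAAT boxes and a cell cycle homology region (CHR), here searched as TTTGAA, near their start. Each is the 250 bases before the RefSeq start in GRCh38.p14, with matches on either strand in capitals. The window of ASPM is chr1:197146670-197146919 on the minus strand and those of CENPF and CDK1 are chr1:214602945-214603194 and chr10:60778081-60778330 on the plus strand.
ASPM: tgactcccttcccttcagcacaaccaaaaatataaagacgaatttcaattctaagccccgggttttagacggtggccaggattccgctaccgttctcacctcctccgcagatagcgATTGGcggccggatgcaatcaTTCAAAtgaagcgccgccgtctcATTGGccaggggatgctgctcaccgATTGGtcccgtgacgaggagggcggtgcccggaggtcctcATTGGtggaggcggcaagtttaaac
CENPF: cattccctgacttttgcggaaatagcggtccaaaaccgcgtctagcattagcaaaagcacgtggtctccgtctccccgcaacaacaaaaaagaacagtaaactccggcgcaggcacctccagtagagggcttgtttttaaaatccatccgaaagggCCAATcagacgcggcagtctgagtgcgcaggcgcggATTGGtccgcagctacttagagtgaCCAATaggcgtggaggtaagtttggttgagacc
CDK1: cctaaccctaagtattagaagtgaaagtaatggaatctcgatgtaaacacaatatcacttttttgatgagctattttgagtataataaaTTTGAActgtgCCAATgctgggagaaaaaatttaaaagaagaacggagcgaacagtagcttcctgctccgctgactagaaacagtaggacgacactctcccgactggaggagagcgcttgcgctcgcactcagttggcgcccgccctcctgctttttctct
ASPM had 4 matches to CCAAT and 1 to TTTGAA, CENPF 3 to CCAAT, and CDK1 1 of each, while the window of CENPE held neither. TTTGAA was present in 22 of 44 promoters of the list (50%), beside 9.05% of the 8728 of all measured genes, and CCAAT in 30 of 44 (68.2%), beside 35.9%. Within the list the 22 genes with TTTGAA had a median difference of -0.82 and the 22 without it of -0.32, and the 30 with CCAAT had -0.32 against -0.69 for the 14 without. Over all measured genes the medians were -0.02 for the 790 with TTTGAA and 0.05 for the 7938 without. The promoters of the 122 genes over 1.5-fold lower in both replicates, of which 109 were in the table, had a median GC content of 64.4%, the same as all measured genes. Of these 109, 17 held TTTGAA (15.6%, beside 9.05%) and 31 held CCAAT (28.4%, beside 35.9%).

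RNA-binding proteins had the largest share of lower genes among the 24 pathway lists. Of 43 measured SR, hnRNP and related genes, 27 (62.8%) were lower on both HGF 1 h arrays and 3 (6.98%) higher, beside 22.1% and 25.2% of all genes, with a median of -0.33, but the median was -0.57 in replicate 1 and -0.10 in replicate 2. The fit of the 4 arrays called 4 of the 43 lower and 0 higher, beside 208 (1.96%) and 12 (0.113%) of all 10596 genes. The 4 were PNISR, SREK1, RBM25 and RBM39, with adjusted p from 0.0148 to 0.0405 in that fit. PNISR, a serine and arginine rich protein that interacts with PNN, read 672 and 487 in untreated cells and 193 and 349 at 1 h (-1.14 ± 0.32, adjusted p = 0.203, and 0.0154 in the fit of the 4 arrays). SREK1, a splicing regulatory protein, read 618 and 434 and then 195 and 304 (-1.09 ± 0.31). RBM25, a regulator of splice site choice, read 418 and 343 and then 145 and 233 (-1.04 ± 0.27), below the 8 other arrays. RBM39, another splicing factor, read 262 and 189 and then 130 and 128, nearly alike on both arrays (-0.79 ± 0.28). Against the untreated mean, the list median was -0.54 and -0.18 on the HGF 1 h arrays, while ITGB4 replicate 2 stood at -0.18 and HGF 24 h replicate 2 at -0.38, so levels as low as that of HGF 1 h replicate 2 occurred in other groups. With replicate 2 alone, 28 of the 43 genes (65.1%) lay below both untreated arrays and 6 (14%) above, beside 33.2% and 38.2% of all genes.

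The others of the 15 largest differences downwards were in none of the gene lists. ZNF638, a zinc finger protein that binds RNA and DNA, read 692 and 495 in untreated cells and 194 and 255 at 1 h (-1.39 ± 0.30, adjusted p = 0.189, and 0.00399 in the fit of the 4 arrays). GOLGA4, a golgin that tethers vesicles at the Golgi, read 655 and 471 and then 159.9 and 286 (-1.38 ± 0.36). KTN1, the kinesin-binding protein kinectin, read 1852 and 1284 and then 508 and 712 (-1.36 ± 0.35). Of these 3, ZNF638 and GOLGA4 were lowest at 1 h among the 10 arrays. ATRX, a chromatin remodeller, read 848 and 952 and then 280.0 and 488 (-1.28 ± 0.28), and PHIP, a bromodomain protein, 538 and 512 and then 179 and 275 (-1.24 ± 0.28), both below the 8 other arrays. NIN, the centrosomal protein ninein, read 1245 and 960.5 and then 491 and 449.8 in its brightest probe, which was among the few with like differences in both replicates, -1.34 and -1.09. Dimmer probes of NIN, near the detection limit, differed by -0.23, with overlapping groups, and by -0.28. NLGN1, the synaptic adhesion protein neuroligin-1, read 532 and 473 and then 195 and 221, also with like differences, -1.45 and -1.10. HMGB1, an abundant chromatin protein, read 1367 and 1252 and then 405 and 770.3 (-1.23 ± 0.24). ZFYVE16, an endosomal protein, differed by -1.28 ± 0.31, and GOLGA8A, a golgin, by -1.21 ± 0.39, of which -2.03 was in replicate 1 and -0.38 in replicate 2. A dimmer probe of GOLGA8A, near the detection limit, differed by -0.30. All 15 of the largest differences downwards, ASPM to GOLGA8A, were called in the fit of the 4 arrays, with adjusted p from 0.00399 to 0.0184. They were picked by their differences on the same 4 arrays, so these calls are built in and are no separate evidence.

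**Figure D4:**
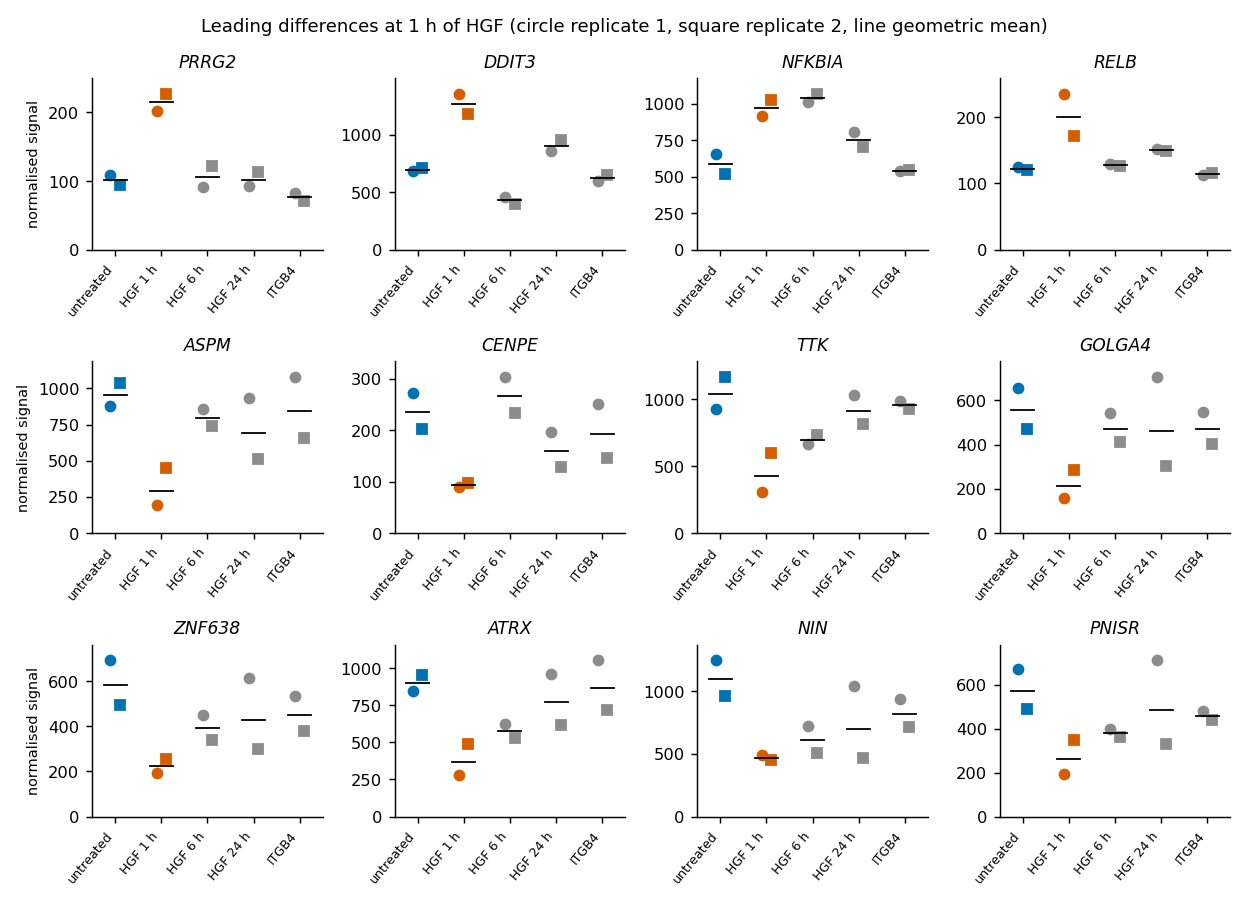
Normalised signal, on a linear axis from 0, of 12 genes with large differences at 1 h on all 10 arrays by group, with untreated in blue and HGF 1 h in orange. PRRG2, DDIT3 and RELB are highest at 1 h, NFKBIA is as high at 6 h, and ASPM, CENPE, TTK, GOLGA4, ZNF638 and ATRX are lowest at 1 h.

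With the groups apart, 67 genes were detected on both HGF 1 h arrays and neither untreated array, and 59 the other way. The 4 with the largest bound on their fold were named, and in each of them both untreated arrays, but no HGF 1 h array, gave a detected signal. ZNF480, a zinc finger protein, was at least 1.72-fold lower at 1 h, ZNF680, another, at least 1.63-fold, CEP290, a protein of the base of the cilium, at least 1.55-fold, and LIN9, a subunit of the complex that regulates cell cycle genes, at least 1.53-fold. Each bound sets the untreated mean against the mean of the HGF 1 h arrays' own detection limits, the lowest detected signal on each array, or of the gene's signal where that was higher, and the adjusted p of these genes ran from 0.202 to 0.22, and from 0.0191 to 0.0444 in the fit of the 4 arrays.

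Ribosome biogenesis, oxidative phosphorylation and cytosolic ribosomal proteins had more genes higher than lower on both HGF 1 h arrays, beside 25.2% and 22.1% of all genes, with small differences. Ribosome biogenesis had 17 of 35 genes higher (48.6%) and 4 lower (11.4%), with a median of 0.12. Oxidative phosphorylation had 25 of 60 higher (41.7%) and 5 lower (8.33%), also with a median of 0.12. Cytosolic ribosomal proteins had 27 of 67 higher (40.3%) and 9 lower (13.4%), with a median of 0.08. Within oxidative phosphorylation, NDUFS3, a core subunit of complex I, was higher by 0.61 ± 0.17 and NDUFA5, an accessory subunit, lower, at -0.86 ± 0.33 (adjusted p = 0.0289 in the fit of the 4 arrays). Heat shock genes and chaperones had 6 of 25 higher (24%) and 11 lower (44%), and their median of -0.03 turned to 0.16 under median scaling. HSP90AA1, the inducible cytosolic HSP90, read 4233 and 4248 and then 1894 and 3136 (-0.80 ± 0.22, adjusted p = 0.199). Metallothioneins and zinc transporters had 3 of 9 higher (33.3%) and 2 lower (22.2%), with a median of 0.15. Among them SLC39A10, a zinc importer, read 1124 and 840 and then 419 and 529 (-1.04 ± 0.25, adjusted p = 0.189, and 0.0117 in the fit of the 4 arrays). Hypoxia and glycolysis, p53 targets, apoptosis regulators, the circadian clock, cholesterol synthesis, cytoskeletal targets of SRF and YAP, TGF-beta targets and inducible cytokines had medians from 0.005 to 0.098.

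**Figure D5:**
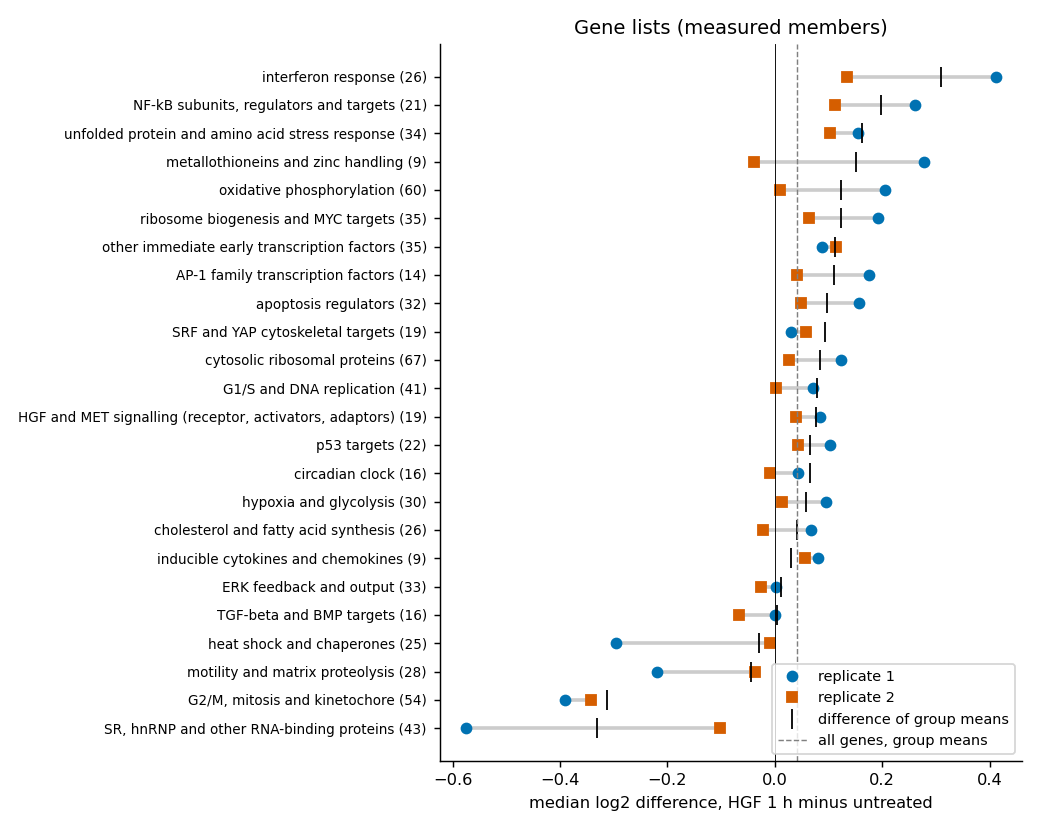
Median log2 difference between HGF 1 h and untreated cells over the measured members of 24 gene lists, with a circle for replicate 1, a square for replicate 2, a bar for the group means and a dashed line for all genes at 0.04. RNA-binding proteins and mitosis are at the low end, at -0.33 and -0.31, and the replicates are far apart for RNA-binding proteins, at -0.57 and -0.10.

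Set against the later times, the 1 h arrays differed from those at 6 h in 654 probes, 340 higher at 1 h (2.43%) and 314 lower (2.24%), and in 0 from those at 24 h, where 888 probes had an unadjusted p under 0.05. The count against 6 h rested on single arrays. It fell most without HGF 1 h replicate 1, fell far without either HGF 6 h array, and hardly changed without HGF 1 h replicate 2. Without either HGF 24 h array it rose. Each of these fits left 1 array in a group. The split also moved with the scaling, to 399 higher and 116 lower under median scaling and to 224 higher and 377 lower with the values normalised by the authors. DDIT3 was higher at 1 h than at 6 h by 1.56 ± 0.16 (adjusted p = 0.0021) and PRRG2 by 1.02 ± 0.19 (adjusted p = 0.012). CENPE was lower at 1 h than at 6 h by a difference of -1.50 ± 0.27 (adjusted p = 0.0107) and CXCL8 by -1.96 ± 0.26 (adjusted p = 0.00534). For CXCL8 the 6 h arrays were the ones that stood apart, whereas DDIT3 lay above its untreated level at 1 h and below it at 6 h.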

How the data were processed

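Total RNA of MDA-MB-435 cells was hybridised to 10 Illumina Human-8 V1 arrays in 5 groups of 2, and groups and replicate numbers came from the sample labels. The authors deposited a scanner table for every array. Its intensities are bead averages on a linear scale, without background subtraction or normalisation between arrays, and the submitters' processing notes name BeadStudio 1.5.1.3 as the software. Per the file headers, each intensity comes with a detection score between 0 and 1 and with a bead count, a column of other content. A deposited table of values holds intensities normalised by the authors with the rank-invariant method. Its columns are on a linear scale with medians from 11.6 to 22.7. It served as an alternative only, since its column for ITGB4 replicate 2 was not a straight line of the scanner values, unlike the other 9.

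Control probes (22) and probes with a missing intensity (9) were set aside, and the other 24105 were quantile normalised and brought to log2 with no offset. Probes with a detection score of 0.99 or above on 1 or more arrays were retained, 14018 in all (58.2%). Of these, 11466 had a current gene symbol, matched through the Entrez number, accession or older symbol in the files, for 10596 genes, and list counts used the brightest retained probe of a gene. Differences were estimated with limma (version 3.58.1, R 4.3.3) from a model of 5 group means fitted to the 10 arrays without a block, with moderated two-sided tests. Calls were made where the Benjamini-Hochberg adjusted p was under 0.05. The fit had 5 residual degrees of freedom and 8.16 more from the prior, so the number of arrays limits the precision. An exact permutation test of 1 gene with 2 arrays a group could not pass this threshold. The script was tested on simulated data. Errors given with a difference are standard errors of the fit.

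The comparison and the gene lists were chosen with earlier results of these data known. The genes named were, by a rule, the 15 largest differences in each direction among genes with the groups apart and detection on all 4 arrays, up to 5 such members of each list, up to 4 genes detected in only 1 group, and a fixed set of HGF-responsive and mitotic genes whatever their values. Alternatives were a block for replicate number or for array background, the 4 arrays alone, normexp background correction with an offset of 50, scaling to the median, the table of values, a floor at the detection limit, no filter, detection on all 4 arrays, the mean of all probes of a gene, other tests, and leaving out each array. Promoter sequences and gene names came from RefSeq tables of GRCh38.p14, and 8728 of the 10596 genes (82.4%) had a promoter in them. Motifs were searched on both strands of the 250 bases before the start. The files name no genome build, so positions of probes were not used here.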

Additional observations from a re-analysis of the deposited data

Results flagged for a closer look

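For 30 of the 157 named genes the level at 1 h differed from the level at 6 h in a limma test of the difference itself, with an adjusted p under 0.05. Over all 14018 probes the same test called 340 higher at 1 h (2.43%) and 314 lower (2.24%). Many of the named genes were picked by their values on the same 1 h arrays. A larger share among them is therefore built in and is no separate evidence. The values are log2 differences, 1 h minus 6 h. Among stress response and mTORC1-related genes they were 2.25 for SESN2, 2.18 for CHAC1, 1.56 for DDIT3 and 1.40 for DDIT4. Among NF-kB and AP-1 genes they were 1.23 for NFKB2, 0.66 for RELB and 0.86 for FOSL2. CIART, a repressor of the circadian clock, differed by 1.26, TINF2, a telomere protein, by 1.16, PRRG2 by 1.02, TMEM198 by 0.96, BAMBI, a decoy receptor for TGF-beta ligands, by 0.75 and NDUFS3 by 0.66. All 13 of these were higher at 1 h.

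The other 17 were lower at 1 h. CXCL8, CCND1 and DUSP4, which lie downstream of ERK, differed by -1.96, -1.62 and -0.77. The mitotic genes CENPE, ASPM and CENPF differed by -1.50, -1.43 and -1.31. RBM25, LUC7L3 and HMGB1, which bind nucleic acids, differed by -1.42, -1.03 and -0.98. BCL2A1, an inhibitor of apoptosis, differed by -1.31, EIF4E, which binds the mRNA cap, by -1.23, RND3 by -1.21, ZNF480 by -1.07, CHORDC1, a partner of HSP90, by -1.001, MT1X, a metallothionein, by -0.99, ELOVL6, a fatty acid elongase, by -0.98, and GNL2, a nucleolar GTPase, by -0.79. None of these 30 calls was made without HGF 1 h replicate 1, when 0 probes were called against 6 h.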

How the results depend on the processing

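At 1 h, 0 probes were called with array background as a block, normexp, the authors' values, the floor, no filter, detection on all 4 arrays, the ordinary pooled-variance test, a trended robust prior, the mean of all probes of a gene and without each array in turn (0 to 0), against 427 (70 higher, 357 lower) with a replicate block, 252 with the 4 arrays only, 279 with the 4 arrays and a replicate block, and 26 with scaling to the median. The labels do not say that a replicate number marks a shared culture or day, and the deviations of same-numbered untreated and HGF 1 h arrays from their group means correlated at 0.196 across probes, within a range from -0.0631 (ITGB4 and HGF 1 h) to 0.661 (untreated and HGF 24 h) over the 10 pairs of groups. The array background block differed from the replicate block only in where it placed ITGB4 replicate 1. With the replicate block, 54 of the 157 named genes passed the threshold, 21 higher and 33 lower, beside 427 of all 14018 probes. Many of the named genes were picked by their values on the same arrays. A larger share among them is therefore built in and is no separate evidence. Against 6 h the count of 654 was 1871 with a replicate block, 1690 with array background as a block, 337 with the floor, 0 with the ordinary test and from 0 to 1037 without single arrays. Against 24 h the count of 0 was 4 with a replicate block, 9 with scaling and from 0 to 0 without single arrays. The percentages of probes above, below and of the same sign in both replicates were 41.3, 11.8 and 70.7 with scaling, 23.3, 17.3 and 61.3 with the authors' values, 22.5, 18.7 and 60.5 with the floor, 19.3, 17.7 and 59.1 with no filter, and 29, 23.5 and 68.2 with detection on all 4 arrays, beside 24.1, 20.1 and 64.9. Signs turned for 13 of the 157 named genes, none of them called before. With scaling their differences were 0.032 for BMP4, 0.13 for ITGB4, 0.031 for KLF10, 0.049 for MET, 0.21 for MYC, 0.041 for RPL11 and 0.072 for SPRY2, and with the authors' values 0.093 for MYC. Without single arrays the differences ran from -0.106 to 0.199 for ATF3, -0.052 to 0.61 for DUSP1, -0.4 to 0.032 for FOS, -0.029 to 0.018 for ITGB4, -0.076 to 0.201 for JUNB, -0.238 to 0.050 for KLF10, -0.226 to 0.025 for KLF6, -0.276 to 0.066 for MET, -0.167 to 0.082 for MYC and -0.157 to 0.265 for NR4A1. The cause was not tested. The counts of list members with HGF 1 h replicate 2 alone were chosen after seeing the data. Genes near the detection limit of 89.6, such as MET, carry little signal over background.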
